A study of Homo sapiens with 6 samples.

Results

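Hypoxia response and glycolysis genes were examined as a set of 42 named genes in HSC2, the cell line named in the labels, which was established from a human squamous carcinoma of the mouth. The array held a probe set with a single gene symbol for 39 of the 42, of 11963 genes measured in all, and these 39 genes had 65 probe sets. CA9, SLC16A1 and SLC16A3 had no such probe set here and were not analysed. Each gene was read from the probe set with the highest mean signal over the 6 arrays. The set was divided into 17 glycolytic enzymes and 22 other measured hypoxia genes, which are the subunits and hydroxylases of the hypoxia-inducible factor (HIF), regulators of glycolytic flux, and HIF target genes.

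By the labels, one group of 3 arrays carried RNA of HSC2 cells stably transfected with a cDNA of full-length wild-type MALT1, a paracaspase of NF-kappaB signalling, and the other 3 carried RNA of HSC2 cells stably transfected with the vector alone (mock). By the same source both lines were kept in the same serum-containing DMEM in a conventional CO2 incubator, and the labels name no low-oxygen treatment. They do not say which promoter drives the cDNA, whether a line is 1 clone, or whether the 3 samples of a line were separate cultures, so every p-value here rests on the scatter of these 3 against 3 samples, and that scatter may be technical.

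The MALT1 transcript was not higher on the arrays labelled MALT1. Its 3 probe sets had log2 differences, arrays labelled MALT1 minus arrays labelled mock, of −1.08, −0.47 and −0.28. The first and second passed the test (limma, adjusted p = 0.0022 and 0.010). Where these probe sets lie on the transcript was not given, so whether they read the transfected cDNA is not known. The groups are therefore named by their labels throughout, and directions are those of the labels. The markers below go against the MALT1 label, so whether those 3 arrays hold the labelled HSC2 line is in doubt. Each difference in the text compares the 2 sets of arrays and may not be an effect of MALT1. Of 13 measured squamous epithelium markers, 11 (such as KRT5) fell under the MALT1 label and 1 (CSTA) rose, with a summed signal of 28626 to 31709 against 59589.5 to 69379. Of 15 measured luminal breast markers, 14 rose and 0 fell, with a summed signal of 77958 to 86547 against 9034 to 9764. KRT19, a simple-epithelium keratin, read 12414 ± 567 against 1.25 ± 0.0665 and TFF1, a secreted trefoil peptide, 15491 ± 264 against 11.4 ± 2.47, which puts them at least 703-fold and 878-fold higher under the MALT1 label against a floor of 17.6. The transcription factors GATA3 and ESR1 read 12862 ± 1303 against 191 ± 25.7 and 1765 ± 44.97 against 115 ± 4.65. The leukocyte marker PTPRC and the endothelial markers CDH5 and VWF read at most 17.2, 11.4 and 10.2 on any array, below 17.6. That value is the top reading of the trp controls, which target bacterial RNA, and probe sets at or below it are called dim here. Among the other markers of these types and of fibroblasts, CD14 was called higher under the MALT1 label (17.6 ± 9.86 against 1.51 ± 0.672, adjusted p = 0.010) and LUM lower (0.275 ± 0.130 against 19.4 ± 1.70, adjusted p = 5.9e-05), both close to the floor or under it. CD3D and PECAM1 read up to 43.98 and 28.8 and did not pass. Summed signals of the 3 leukocyte, 5 fibroblast and 4 endothelial markers were 24.1 to 70.3, 100.1 to 214 and 26.5 to 42.4 under the MALT1 label and 24.1 to 36.6, 118 to 169 and 28.8 to 34.4 under the mock label. The squamous and luminal shifts go with every difference below, and their part in it was not tested.

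Glycolysis splits glucose into pyruvate in the cytosol, and lactate dehydrogenase turns pyruvate into lactate. When oxygen is short, the prolyl hydroxylases EGLN1 and EGLN3 stop marking HIF-alpha subunits for degradation. The stabilised subunit pairs with ARNT, binds short motifs with the core RCGTG, and raises transcription of glycolytic enzymes and of genes of vessel growth, matrix hydroxylation and mitophagy. In carcinoma cells the same enzymes are often high with oxygen present. HIF-alpha subunits are controlled mainly as proteins, which an expression array does not measure.

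The glycolytic enzymes and the other hypoxia genes each moved in both directions. The 4 differences over 2 log2 units, in STC1, ADM, P4HA2 and NDRG1, were all in the other hypoxia genes. Of 17 glycolytic enzymes, 4 rose (PFKL, ALDOA, ALDOC and ENO2), 4 fell (PFKM, ENO1, PKM and LDHB) and 9 did not pass on the arrays labelled MALT1. Of 22 other hypoxia genes, 4 rose (STC1, P4HA2, MXI1 and ARNT), 9 fell (ADM, NDRG1, PFKFB3, ERO1A, P4HA1, EPAS1, BNIP3, PLOD1 and PLOD2) and 9 did not pass. The threshold was an adjusted p under 0.05 in limma over all probe sets. Over all 11963 genes read in the same way 40.4% passed, 21.1% higher and 19.2% lower. The shares of 17 and of 22 genes (47.1% and 59.1%) are therefore read against a high background. That background includes dim genes, while 1 of the 39 members was dim in both groups. With dim probe sets left out, 8544 of 15740 probe sets passed, against 7917 of 22215 with them. Among genes as bright as the members the share passing may therefore be above 40.4%, which was not tested. A difference of at least 2-fold was found in 3 glycolytic enzymes and 8 other hypoxia genes, and in 20.5% of all genes (10.8% higher, 9.64% lower). The median log2 difference was −0.03 for the glycolytic enzymes and −0.33 for the other hypoxia genes, beside 0.08 for all genes. The groups did not overlap in 13 of 17 glycolytic enzymes and 19 of 22 other hypoxia genes, and in 54.6% of all genes. The count of falling enzymes was 2 in place of 4 when MALT1 replicate 1, 2 or 3 or mock replicate 1 or 3 was left out, and 6 with quantile normalization, with a trended limma fit or with plain probe sets.

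**Figure D1:**
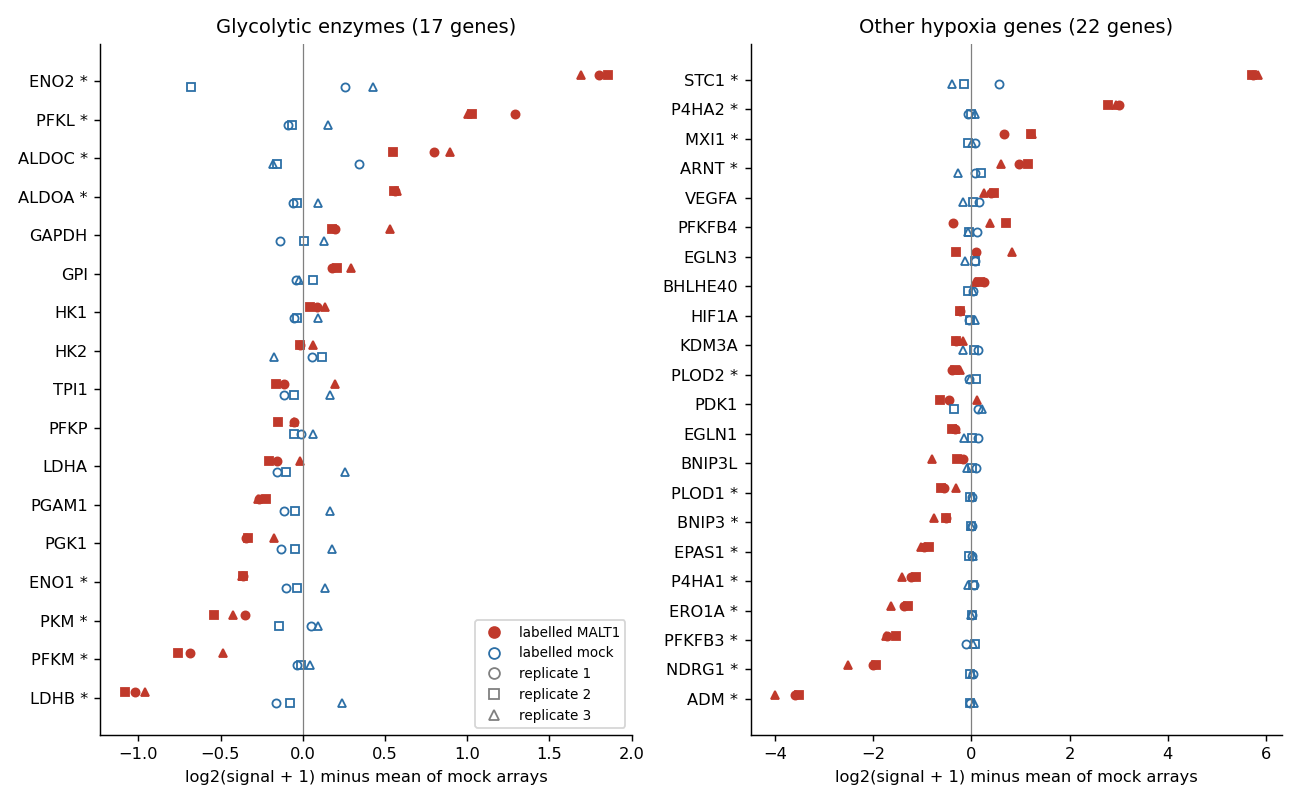
Each point is 1 array, plotted as log2(signal + 1) minus the mean of the 3 mock arrays for that gene (horizontal axis), with arrays labelled MALT1 filled, arrays labelled mock open, and an asterisk for an adjusted p under 0.05. Glycolytic enzymes (left, 17 genes) lie between −1.02 for LDHB and 1.78 for ENO2 in mean difference, and other hypoxia genes (right, 22 genes, wider axis) between −3.70 for ADM and 5.76 for STC1.

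The first steps of glycolysis gave no call. The hexokinase HK1, which traps glucose as its 6-phosphate, read 1582, 1535 and 1629.9 under the MALT1 label and 1433, 1448 and 1584 under the mock label. HK2, the inducible hexokinase of many carcinomas, read 2296, 2298 and 2428 (labelled MALT1) against 2415, 2522 and 2064 (labelled mock). Both hexokinases overlapped between the groups and did not pass (log2 difference 0.09 ± 0.09 SE, adjusted p = 0.50 for HK1; log2 difference 0.01 ± 0.11 SE, adjusted p = 0.96 for HK2). The isomerase GPI read 1428 ± 60.5 against 1220.0 ± 48.4 (mean ± SD, n = 3 each, MALT1 against mock) without overlap, and did not pass either (adjusted p = 0.10), although it did when dim probe sets were left out (adjusted p = 0.042).

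The 3 phosphofructokinase genes, whose products form the committed step, diverged. The liver-type subunit PFKL read 329, 274 and 269 on the arrays labelled MALT1 and 126, 128 and 149 on those labelled mock, so every array labelled MALT1 lay above every mock array and the gene rose 2.15-fold on the log2(signal + 1) scale (log2 difference 1.11 ± 0.13 SE, adjusted p = 0.0023). A dimmer second PFKL probe set rose less, by 1.48-fold (log2 difference 0.57 ± 0.11 SE, adjusted p = 0.015). The muscle-type PFKM read 729, 692 and 837 under the MALT1 label and 1146, 1162 and 1209.7 under the mock label, and it fell without overlap (log2 difference −0.64 ± 0.11 SE, adjusted p = 0.0073). The platelet-type PFKP, at 3342 ± 132 against 3549 ± 138, did not pass (adjusted p = 0.49). Within each array the log2 ratio of PFKL to PFKM was −1.37 ± 0.25 (SD) on the arrays labelled MALT1 and −3.12 ± 0.10 on the mock arrays, a shift of 1.75. An exact permutation test, two-sided, gave p = 0.1, the smallest that 3 arrays against 3 allow, and adjusted p = 0.133 over the 8 gene pairs compared in this way. Signals of different probe sets are not on 1 scale, so the shift shows unequal change and the ratio itself has no meaning.

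Aldolase, the next enzyme, was higher in both of its measured forms. The ubiquitous ALDOA read 9140.1, 9093 and 9211 (labelled MALT1) against 5946, 6047 and 6605 (labelled mock), a rise of 1.48-fold (log2 difference 0.56 ± 0.08 SE, adjusted p = 0.0055) that both of its probe sets showed. Both are of the x_at kind, which can bind related transcripts, as is the brightest PFKL probe set above. The brain-type ALDOC, a dimmer gene, read 140.4, 118 and 150.5 on the arrays labelled MALT1 and 102, 71.9 and 70.8 on those labelled mock and passed (adjusted p = 0.032). Its call was lost without MALT1 replicate 1 or 3 or mock replicate 2 or 3, with adjusted p = 0.087 to 0.10. The ALDOC to ALDOA ratio overlapped between the groups (shift 0.19, exact permutation p = 0.5).

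The triose enzymes were among the brightest genes and gave no call on their brightest probe sets. TPI1, the triose isomerase, read 8613, 8337 and 10652 under the MALT1 label and 8596, 8987 and 10469 under the mock label, with a wide spread in both groups (log2 difference −0.03 ± 0.14 SE, adjusted p = 0.91). Another probe set of TPI1, much dimmer, was lower (170.1 ± 27.3 against 273 ± 27.9, adjusted p = 0.024), so its probe sets disagree. GAPDH, the dehydrogenase often taken as a reference gene, read 13680.3, 13472 and 17207 (labelled MALT1) against 10842, 11977 and 13040.0 (labelled mock) without overlap and did not pass (log2 difference 0.30 ± 0.14 SE, adjusted p = 0.17). The 3 control probe sets for GAPDH, which lay outside the test, had log2 differences of 0.10, 0.01 and 0.06. All 3 tested GAPDH probe sets are also of the x_at kind, and GAPDH has many pseudogene copies, so its level is uncertain.

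PGK1, the kinase that yields the first ATP of the pathway, depended on the probe set. Its brightest one read 9318, 9402 and 10480.2 on the arrays labelled MALT1 and 10812, 11465 and 13428 on those labelled mock and did not pass (log2 difference −0.29 ± 0.12 SE, adjusted p = 0.13). The plain probe set of the same gene read 2142 ± 95.4 against 4183 ± 277 and fell (log2 difference −0.96 ± 0.09 SE, adjusted p = 0.0013), as did a second s_at probe set by 0.70 on the log2 scale. All 4 probe sets of PGK1 had a negative difference, and 2 of them passed, beside 35.6% of all 22215 probe sets. The mutase PGAM1, at 7717 ± 149 against 9234 ± 962, lay lower on every array labelled MALT1 and did not pass (adjusted p = 0.13).

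The 2 enolases moved apart. ENO1, the enolase of most tissues, read 9034, 9015 and 8993 under the MALT1 label and 10818, 11341 and 12716 under the mock label and fell by 0.36 on the log2 scale (adjusted p = 0.036). That call was lost when any 1 of the 6 arrays was left out (adjusted p = 0.055 to 0.099). ENO2, the neuronal enolase and a known HIF target, read 105, 109 and 96.8 (labelled MALT1) against 35.2, 17.9 and 39.6 (labelled mock), a rise of 3.44-fold (log2 difference 1.78 ± 0.31 SE, adjusted p = 0.0094). The mock signal of replicate 2 lies just above 17.6, so the size of its fold is imprecise. The log2 ratio of ENO2 to ENO1 shifted by 2.15 without overlap (exact permutation p = 0.1, the smallest possible).

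At the end of the pathway LDHB fell and LDHA did not pass. PKM, the pyruvate kinase, read 346, 303 and 329 on the arrays labelled MALT1 and 456, 399 and 471 on those labelled mock and fell (log2 difference −0.44 ± 0.11 SE, adjusted p = 0.030), a call that was lost without MALT1 replicate 1, 2 or 3 or mock replicate 1 or 3 (adjusted p = 0.060 to 0.096). LDHB encodes the heart-type subunit of lactate dehydrogenase, which favours the use of lactate, and it read 6156, 5899 and 6417 under the MALT1 label and 11189, 11862 and 14723 under the mock label. It fell 2.03-fold (log2 difference −1.02 ± 0.13 SE, adjusted p = 0.0033), and its other probe set fell by 1.53 on the log2 scale (both x_at). LDHA, the muscle-type subunit and a classic HIF target, read 12876, 12449 and 14187 (labelled MALT1) against 12880.1, 13396 and 17118 (labelled mock) and overlapped between the groups (log2 difference −0.13 ± 0.14 SE, adjusted p = 0.56). In each array labelled MALT1 the LDHB to LDHA log2 ratio was between −1.14 and −1.06, and in each mock array between −0.22 and −0.18. The shift of −0.90 gave an exact permutation p = 0.1, the smallest possible.

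**Figure D2:**
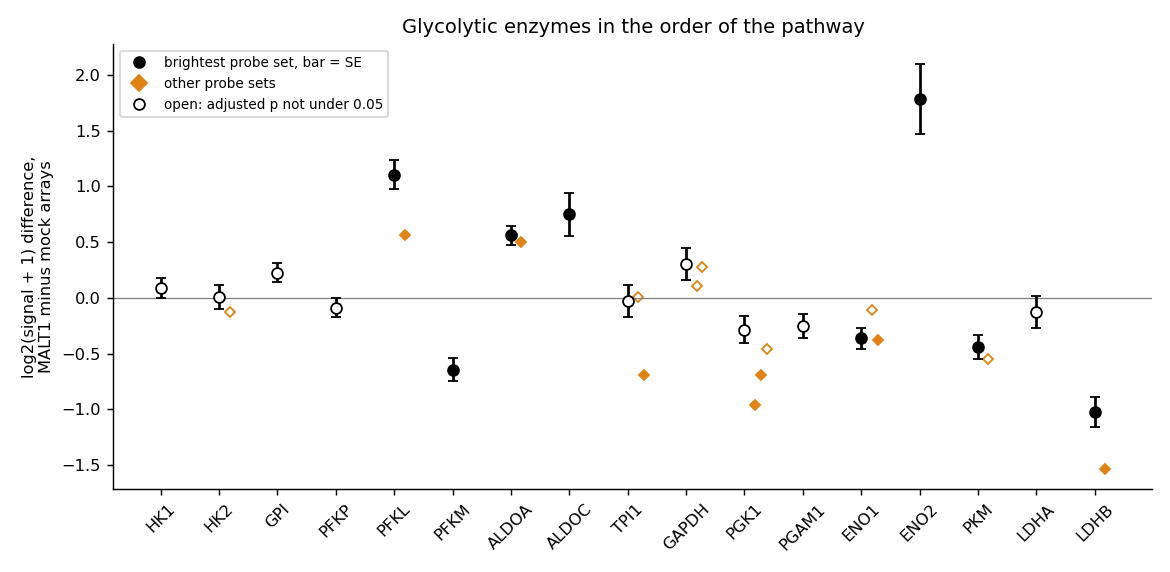
The vertical axis gives the difference in log2(signal + 1), arrays labelled MALT1 minus arrays labelled mock (n = 3 each), for 17 enzymes in pathway order; circles are the brightest probe set with its SE, diamonds the other probe sets, and filled symbols passed at an adjusted p under 0.05. PFKL and PFKM, ENO2 and ENO1, and LDHB and LDHA part from each other, while PGK1 and TPI1 differ between their own probe sets.

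Of the genes that set glycolytic flux from outside the pathway, only PFKFB3 passed among the 3 measured. PFKFB3 makes fructose 2,6-bisphosphate, the strongest activator of phosphofructokinase, and read 837, 957 and 826 on the arrays labelled MALT1 and 2563, 2898 and 2837 on those labelled mock. It fell 3.17-fold (log2 difference −1.66 ± 0.11 SE, adjusted p = 0.00033), and the groups were far apart relative to their spread. Its relative PFKFB4 lay at or below 17.6 on all 6 arrays, so no fold is given. PDK1, the kinase that keeps pyruvate out of the mitochondrion by blocking pyruvate dehydrogenase, read 86.1, 75.6 and 129 under the MALT1 label and 131, 92.4 and 139 under the mock label, with overlap (adjusted p = 0.41).

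The transcripts of the HIF subunits moved in different directions. HIF1A, the widely expressed alpha subunit, read 5427, 5405 and 5399.6 (labelled MALT1) against 6161, 6236 and 6745 (labelled mock). Each array labelled MALT1 lay below each mock array, but the difference was small and did not pass (log2 difference −0.24 ± 0.08 SE, adjusted p = 0.082), although it did with dim probe sets left out (adjusted p = 0.031). EPAS1, which encodes HIF-2-alpha, read 821, 888 and 787 on the arrays labelled MALT1 and 1619, 1556 and 1655 on those labelled mock and fell 1.94-fold (log2 difference −0.95 ± 0.09 SE, adjusted p = 0.0011). Its second probe set was dim on 5 of 6 arrays, and with both averaged the call was lost (log2 difference −0.33, adjusted p = 0.70). ARNT, the shared beta subunit, read 250.0, 283 and 194 under the MALT1 label and 133, 146 and 105 under the mock label and rose 1.88-fold (log2 difference 0.91 ± 0.20 SE, adjusted p = 0.020). The ARNT call was lost without MALT1 replicate 1 or 2 or mock replicate 1 or 3 (adjusted p = 0.055 to 0.067). Its other probe sets, each dim on some arrays, had positive differences but overlapped between the groups and did not pass (adjusted p = 0.11 and 0.46).

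Neither hydroxylase passed. EGLN1, the main oxygen sensor of the pathway, read 179, 172 and 183 (labelled MALT1) against 252, 229 and 206 (labelled mock), lower without overlap at an adjusted p of 0.055 in limma. It passed in 7 of the 15 alternative settings, among them without mock replicate 3 (adjusted p = 0.045). EGLN3, a hydroxylase that HIF itself induces, read 61.5, 46.6 and 103 on the arrays labelled MALT1 and 60.9, 60.7 and 52.4 on those labelled mock, with MALT1 replicate 3 above the other 5 arrays (adjusted p = 0.67).

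Among the 14 measured HIF targets, 3 rose, 7 fell and 4 did not pass, and none of the 14 overlapped between the groups. Over all genes, dim ones included, 40.4% passed and 54.6% did not overlap. ADM, the vasodilator peptide adrenomedullin, had the largest fall. It read 477, 506 and 357 under the MALT1 label and 5630.5, 5635 and 5993 under the mock label, 12.99-fold lower on the former (log2 difference −3.70 ± 0.16 SE, adjusted p = 0.00011). NDRG1, a stress-responsive differentiation gene, read 542, 561 and 376 (labelled MALT1) against 2215, 2111 and 2178 (labelled mock) and fell 4.46-fold (log2 difference −2.16 ± 0.18 SE, adjusted p = 0.00075). In both genes MALT1 replicate 3 was the lowest of its group, and the 3 mock arrays lay close together.

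Genes of protein folding and collagen hydroxylation split. ERO1A, the oxidase that drives disulfide bond formation in the endoplasmic reticulum, read 269, 287 and 226 on the arrays labelled MALT1 and 703, 706 and 699 on those labelled mock and fell 2.70-fold (log2 difference −1.44 ± 0.12 SE, adjusted p = 0.00070). P4HA1, an alpha subunit of the collagen prolyl hydroxylase, read 935, 998 and 826 under the MALT1 label and 2267, 2257 and 2079 under the mock label and fell 2.40-fold (log2 difference −1.26 ± 0.11 SE, adjusted p = 0.00082). P4HA2, another alpha subunit of the same enzyme family, went the opposite way. It read 1108, 959 and 1063 (labelled MALT1) against 132, 138 and 145 (labelled mock), a rise of 7.51-fold (log2 difference 2.91 ± 0.10 SE, adjusted p = 6.9e-05). The log2 ratio of P4HA2 to P4HA1 shifted by 4.17, more than that of the other 7 gene pairs compared, with an exact permutation p = 0.1, the smallest possible. The lysyl hydroxylases PLOD1 (178 ± 19.9 against 251 ± 3.34) and PLOD2 (1915 ± 98.8 against 2389.7 ± 138) fell by 0.50 and 0.32 on the log2 scale (adjusted p = 0.019 and 0.049). The PLOD2 call was lost without any 1 of the 6 arrays, and the PLOD1 call without any 1 except MALT1 replicate 3 (adjusted p = 0.056 to 0.15 for PLOD2 and adjusted p = 0.060 to 0.069 for PLOD1).

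STC1 had the largest difference of the 39 genes. It encodes stanniocalcin-1, a secreted glycoprotein, and read 1113, 1105 and 1202 on the arrays labelled MALT1 and 29.8, 17.8 and 14.97 on those labelled mock. The mock signal was above 17.6 on only 2 of 3 arrays, so the fitted difference is imprecise in size (log2 difference 5.76 ± 0.26 SE, adjusted p = 0.00013). Its x_at probe set was dim on all 3 mock arrays and was at least 19.9-fold higher on the arrays labelled MALT1 (adjusted p = 0.0011), where the bound is the geometric mean of the bright group over 17.6. The remaining probe set, dim on the same arrays, was at least 2.72-fold higher.

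The mitophagy receptors, transcription regulators and VEGFA differed less. BNIP3 read 3526, 3510.0 and 2986 under the MALT1 label and 5069, 5021 and 5030.2 under the mock label and fell by 0.60 on the log2 scale (adjusted p = 0.0083), with the same call on its other probe set. Its relative BNIP3L, at 1383 ± 303 against 1821 ± 119, did not pass (adjusted p = 0.16). MXI1, an antagonist of MYC, read 636, 928 and 942 (labelled MALT1) against 418, 379.8 and 402 (labelled mock) and rose 2.06-fold (log2 difference 1.04 ± 0.18 SE, adjusted p = 0.0093), with MALT1 replicate 1 below the other 2 of its group. The histone demethylase KDM3A (463 ± 24.7 against 558 ± 58.5) and the circadian repressor BHLHE40 (543 ± 33.1 against 485 ± 18.3) did not pass (adjusted p = 0.14 and 0.24). VEGFA, the vascular growth factor, read 850.1, 885 and 768 on the arrays labelled MALT1 and 711, 656 and 566 on those labelled mock, higher without overlap but not past the threshold (log2 difference 0.38 ± 0.12 SE, adjusted p = 0.071). Of its other 3 probe sets, 1 was called higher (log2 difference 0.68, adjusted p = 0.012) and 2 had small negative differences, so the probe sets of VEGFA disagree.

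**Figure D3:**
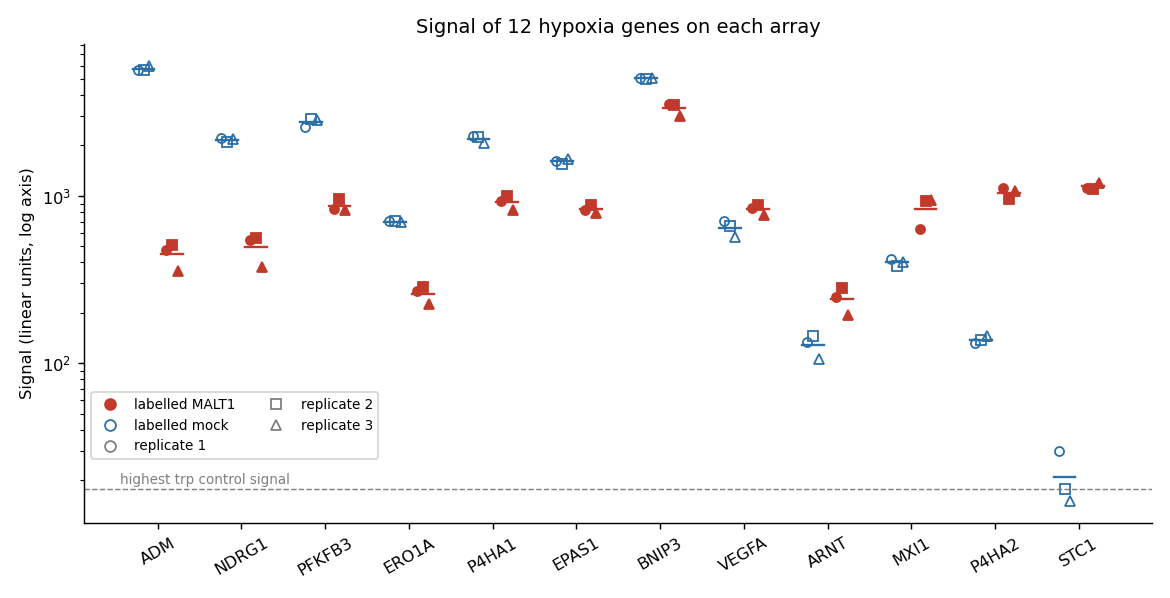
Signal (log axis, linear scanner-derived units) of 12 hypoxia genes on each of the 6 arrays, with a short line at each group's mean of 3 arrays and a dashed line at 17.6, the highest trp control signal. ADM, NDRG1, PFKFB3, ERO1A, P4HA1, EPAS1 and BNIP3 are lower on every array labelled MALT1, and ARNT, MXI1, P4HA2 and STC1 are higher; levels are not comparable between genes.

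Promoters of members that moved in opposite directions were compared for the HIF motif core. RefSeq promoter entries (build GRCh38.p14) were held for 35 of the 39 genes, not for VEGFA, NDRG1, BNIP3L and STC1. The letters ACGTG and GCGTG were searched on both strands of the 250 bases before the transcript start, with overlapping matches such as CACGTG counted as 1 site. A site was present in at least 1 window of 29 of 35 genes (82.9%), against 60.6% of 9563 measured genes with an entry. Counted by window, it was present in 37 of 61 member windows (60.7%), against 43.2% of all 35116 windows of this length. It was found in 5 of 7 genes that rose, 10 of 12 that fell and 14 of 16 that did not pass. Genes with several windows have more chances to hold a site, and a match of letters is a description, not a binding site.

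Printed below, 5′ to 3′ with the motif in capitals, are 3 targets that fell (ADM, ERO1A and P4HA1), P4HA2, which rose, and the lactate dehydrogenase pair, of which LDHB fell and LDHA did not pass. For LDHA the first of its 2 windows is shown.
ADM, chr11:10304823-10305072, plus strand: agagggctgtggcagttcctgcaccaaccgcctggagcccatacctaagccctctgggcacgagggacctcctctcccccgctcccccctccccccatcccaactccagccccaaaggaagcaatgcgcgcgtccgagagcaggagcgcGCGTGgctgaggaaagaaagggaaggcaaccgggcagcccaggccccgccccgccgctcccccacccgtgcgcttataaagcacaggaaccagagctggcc
ERO1A, chr14:52695559-52695808, minus strand: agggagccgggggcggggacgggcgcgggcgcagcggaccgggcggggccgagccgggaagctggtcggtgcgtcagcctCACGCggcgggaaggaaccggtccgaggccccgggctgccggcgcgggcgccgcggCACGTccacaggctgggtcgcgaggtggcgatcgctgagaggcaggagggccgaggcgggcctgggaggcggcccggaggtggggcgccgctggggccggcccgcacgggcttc
P4HA1, chr10:73096867-73097116, minus strand: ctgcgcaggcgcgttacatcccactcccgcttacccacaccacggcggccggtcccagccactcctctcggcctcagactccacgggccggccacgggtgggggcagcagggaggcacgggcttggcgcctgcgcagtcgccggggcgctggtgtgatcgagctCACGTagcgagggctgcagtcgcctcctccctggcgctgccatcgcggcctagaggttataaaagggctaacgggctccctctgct
P4HA2, chr5:132227092-132227341, minus strand: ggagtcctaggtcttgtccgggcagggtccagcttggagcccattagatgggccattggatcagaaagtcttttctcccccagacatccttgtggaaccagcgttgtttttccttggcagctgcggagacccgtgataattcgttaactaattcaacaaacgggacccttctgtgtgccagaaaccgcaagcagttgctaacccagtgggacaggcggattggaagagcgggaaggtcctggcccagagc
LDHA, chr11:18394313-18394562, plus strand: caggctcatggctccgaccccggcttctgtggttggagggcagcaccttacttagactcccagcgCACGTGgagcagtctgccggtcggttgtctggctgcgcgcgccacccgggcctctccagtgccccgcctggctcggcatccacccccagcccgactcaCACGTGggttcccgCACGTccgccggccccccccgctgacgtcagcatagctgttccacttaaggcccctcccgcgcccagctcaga
LDHB, chr12:21657843-21658092, minus strand: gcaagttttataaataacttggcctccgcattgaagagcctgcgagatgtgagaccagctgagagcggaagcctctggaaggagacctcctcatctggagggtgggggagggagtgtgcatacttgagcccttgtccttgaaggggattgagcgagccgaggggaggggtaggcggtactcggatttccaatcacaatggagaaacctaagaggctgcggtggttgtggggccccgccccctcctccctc
The falling ADM and P4HA1 had 1 site each and ERO1A had 2, while the rising P4HA2 had none in this window. In the window shown LDHA, which did not pass, had 3 sites (its other window had 1), and LDHB, which fell, had none. Among rising genes not printed, ALDOC had 4 sites and ENO2 and PFKL had 1 each, while ARNT had 0. The genes that fell and those that rose thus each include promoter windows with and without the letters.

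Other genes of the same pathways were taken from lists drawn up by function, and the 2 lists that follow each had calls in 1 direction only. Of 17 further glycolysis genes measured of 21, 0 rose and 4 fell (SLC2A1, SLC2A3, BPGM and TIGAR), beside 21.1% higher and 19.2% lower over all genes. The share called was 23.5%, below the 40.4% of all genes, and 8 of the 17 were dim on at least 1 array. The glucose transporter SLC2A1 fell from 959 ± 64.4 to 413 ± 45.1 (log2 difference −1.22 ± 0.12 SE, adjusted p = 0.0012). SLC2A3, a high-affinity transporter, and BPGM, which makes 2,3-bisphosphoglycerate, fell by 2.10 and 0.79 on the log2 scale. In the pentose phosphate pathway, which branches off at glucose 6-phosphate, 3 of 7 measured genes rose and 0 fell, a share called (42.9%) near the 40.4% of all genes. PGD, the second NADPH-yielding enzyme of that branch, rose from 316 ± 22.02 to 1274 ± 19.1 (log2 difference 2.01 ± 0.09 SE, adjusted p = 0.00012), RPIA by 0.90 and the transketolase TKT by 0.69 on the log2 scale.

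Pyruvate entry into mitochondria split, with 4 of 11 measured genes higher (PDHA1, PDHB, PDK3 and MPC2) and 3 lower (DLAT, PDP1 and MPC1). That is 63.6% called beside 40.4% of all genes, dim ones included. The phosphatase PDP1, which activates pyruvate dehydrogenase, fell from 984 ± 58.2 to 179 ± 16.9 (log2 difference −2.45 ± 0.11 SE, adjusted p = 0.00012). The opposing kinase PDK3 rose by 1.10 and the pyruvate carrier subunit MPC1 fell by 0.80 on the log2 scale. Of 14 HIF pathway regulators, 5 rose (ARNT2, CREBBP, ELOB, CITED2 and SIAH2) and 1 fell (ELOC), or 42.9% called, which is near that background. The coactivator CREBBP rose by 1.12, and the VHL partners ELOB and ELOC had log2 differences of 0.73 and −0.63. Of 33 further hypoxia targets, 9 rose, 9 fell and 15 did not pass, or 54.5% called beside 40.4%, with a median log2 difference of 0.12. CXCR4, a chemokine receptor, was at least 73.2-fold higher (adjusted p = 3.1e-05), with all 3 mock arrays dim. The glycogen-targeting subunit PPP1R3C read 577 ± 24.5 against 14.9 ± 3.91 with 2 of 3 mock arrays at or below 17.6, and TMEM45A fell by 2.61 on the log2 scale.

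Members had neighbours that moved one way about as often as all genes had. Of the 39 genes, 4 (ADM, LDHB, PDK1 and STC1; 10.3%) had 5 or more of 10 neighbours lower, and 4 (ALDOA, ARNT, KDM3A and BHLHE40; 10.3%) had 5 or more higher. Over the 11714 genes with 10 neighbours these shares were 9.31% and 9.57%, and 1.66% had 7 or more lower. In the RefSeq gene order, the 5 measured genes on each side of ADM were taken as its neighbours. Of these, 0 of 10 rose and 7 fell (median log2 difference −1.13), and all 10 had a negative difference. Around LDHB, 1 of 10 rose and 5 fell (median log2 difference −0.98). Around ARNT, 6 of 10 rose and 0 fell (median log2 difference 1.06), and around ALDOA 5 of 10 rose and 1 fell (median log2 difference 0.97). STC1 rose, while of its neighbours 0 of 10 rose and 6 fell (median log2 difference −1.03). KDM3A had a log2 difference of −0.27 and did not pass, while of its neighbours 7 of 10 rose and 1 fell (median log2 difference 0.80). PDK1 and BHLHE40 did not pass either, and of the PDK1 neighbours 1 of 10 rose and 5 fell (median log2 difference −0.32), and of the BHLHE40 neighbours 6 of 10 rose and 0 fell (median log2 difference 0.62). The neighbours of P4HA2, ENO2, PFKL, ERO1A and PFKFB3 had medians between 0.09 and 0.28, far smaller in size than the differences of these genes themselves. Of these genes, ERO1A and PFKFB3 fell, opposite in sign to the medians of their neighbours. The part of a shared regional shift in the members' differences was not tested.

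**Figure D4:**
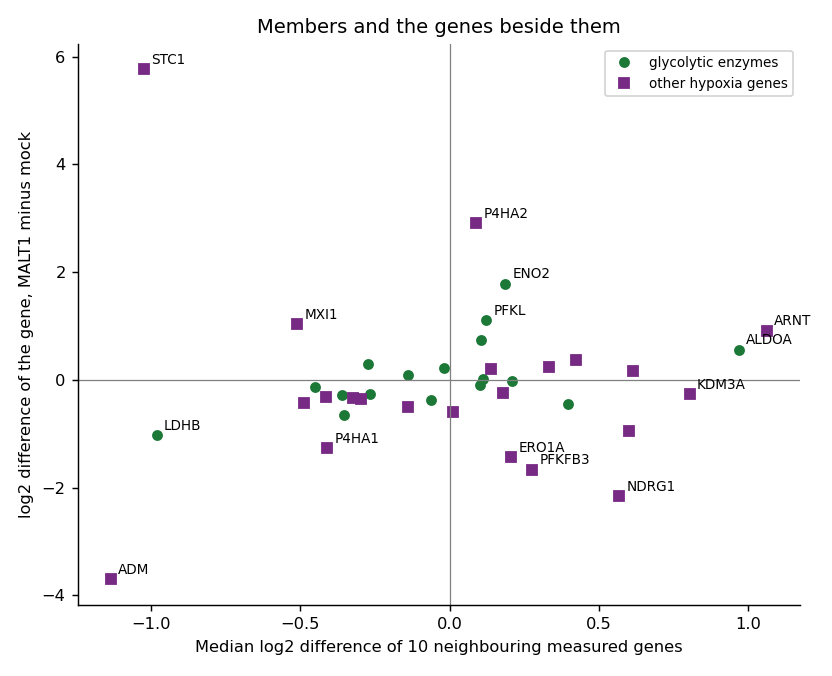
Each point is 1 of the 39 genes, with the median log2 difference of the 10 measured genes beside it on the horizontal axis and its own log2 difference, arrays labelled MALT1 minus mock, on the vertical axis. ADM and LDHB lie with their neighbours at the lower left, ALDOA and ARNT at the right, and STC1, P4HA2 and NDRG1 lie away from theirs.

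The arrays of a group also differed from each other in these genes, and what sets an array apart was not tested. MALT1 replicate 3 was the lowest of its group in 8 of 14 HIF targets, namely ADM, NDRG1, BNIP3, BNIP3L, P4HA1, ERO1A, VEGFA and BHLHE40, and it was the lowest in 29.1% of all genes. The same array was the highest of its group in 12 of 17 glycolytic enzymes, against 50.5% of all genes. Among the mock arrays, replicate 3 was the highest in 14 of 17 glycolytic enzymes, against 32.8% of all genes. In GAPDH, TPI1 and LDHA the highest signal of each group lay on replicate 3, and these 3 genes had an SE of 0.14, 0.14 and 0.14. MALT1 replicate 3 also had the fewest dim probe sets (25.6% at or below 17.6, against 31.7% to 33.3% on the others). Without it, 3 glycolytic enzymes were higher and 2 lower, and 4 other hypoxia genes were higher and 8 lower.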

How the data were processed

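The authors deposited 1 linear intensity value per probe set and array, already summarised. The summarising program was not given in the sources used here. Each array's mean after trimming 2% at each end was 500.1 to 500.2, so the arrays had been scaled to a common level. The labels' protocols name a Trizol extraction and biotin labelling for Affymetrix arrays. The number of arrays limits the precision.

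Of 22277 probe sets, 62 controls were left out and 22215 tested on log2(signal + 1), in limma 3.58.1 (R 4.3.3; lmFit, eBayes, two-sided, Benjamini-Hochberg), because the values were linear. Adding 1 draws the folds of dim genes towards no change, and signals near or under 17.6 make these folds imprecise in size. A group at or below 17.6 on all its arrays has a bound only. Symbols came from the platform annotation (19064 probe sets with 1 symbol, 1043 with several, 2108 with none), of which 19052 matched the GRCh38.p14 RefSeq gene table. The fit was tested on simulated data. The labels give no batch. The members and lists were chosen with earlier results of these data known. All members are named, and in each further list up to 3 genes with the smallest adjusted p that are above 17.6 on all arrays of a group, with MALT1 as the label check; cell markers and the other list genes named for small counts were chosen after their values were seen. Shifts in 8 gene ratios had an exact permutation test. Its smallest p with 3 arrays against 3 is 0.1, which every ratio without overlap reaches, so it adds nothing to the calls. Of the pairs not described above, PFKL to PFKP shifted by 1.19 and EPAS1 to HIF1A by −0.72 (exact permutation p = 0.1 each). HK2 to HK1 shifted by −0.08 (exact permutation p = 0.5). Alternatives were 2 other transforms, 2 normalizations, a dim filter, 2 probe set rules, a trended fit, a replicate block and leaving out each array. The main fit did not treat replicate numbers as pairs, and whether they pair the arrays is not settled.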

Additional observations from a re-analysis of the deposited data

How the results depend on the processing

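Of 21 members that passed, 14 kept their call and direction under all 15 alternatives (ADM, NDRG1, PFKFB3, ERO1A, P4HA1, BNIP3, P4HA2, MXI1, STC1, PFKL, PFKM, ALDOA, ENO2 and LDHB), 7 lost the call under at least 1 (ALDOC, ARNT, ENO1, EPAS1, PKM, PLOD1 and PLOD2) and 0 changed direction. The plain probe set rule kept a gene's brightest probe set where it had no plain one. For the 14 genes that kept their call it read the same probe set as the main fit, so it could not change them. ADM, NDRG1, PFKFB3, ERO1A, P4HA1, P4HA2, MXI1, PFKM and ENO2 have 1 probe set each. Averaging over probe sets therefore could not change their log2 differences. Of 18 members that did not pass, 10 passed under at least 1 alternative. Falling glycolytic enzymes numbered 4, and 2 with the replicate block; it was 6 with quantile normalization, a trended limma fit or plain probe sets, and leaving out each array gave 2 to 3. With the replicate block the calls of ALDOC, ENO1, PKM, PLOD1 and PLOD2 were lost, and 5808 probe sets passed in place of 7917. Over all probe sets, dim ones included, same-numbered arrays of the 2 groups had deviations that correlated at −0.026 to 0.015. In the glycolytic enzymes replicate 3 was the highest array in 12 of 17 under the MALT1 label and in 14 of 17 under the mock label. Whether the replicate numbers pair the arrays is therefore not settled. The median log2 difference of the glycolytic enzymes was −0.027, and it was −0.16 after median centring, −0.095 after quantile normalization, −0.087 with probe sets averaged, −0.087 with plain probe sets, and −0.10 to 0.022 without each array; the cause was not tested. Changes of sign were seen only in members that did not pass: HK1 (−0.039 after median centring), HK2 (−0.12 after median centring, −0.059 with probe sets averaged, −0.077 to 0.068 without each array), PFKFB4 (−0.11 after quantile normalization, −0.0011 to 0.54 without each array), TPI1 (−0.14 to 0.057), LDHA (−0.20 to 0.0016) and EGLN3 (−0.11 to 0.45) without each array. Median centring moved the median over all probe sets from 0.079 to −0.049. Signals near 17.6 limit ENO2, STC1 and PFKFB4.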
